A study of Rattus norvegicus with 11 samples.

Results

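The transcripts of 10 genes for heat shock proteins and chaperones were followed in white blood cells (WBCs) of the rat. The genes were Hspa1b, Hspa5, Hspa8, Hsp90aa1, Hsp90ab1, Hspb1, Hspd1, Hspe1, Hsph1 and Dnajb1, chosen by symbol among the 32623 genes of the deposited table, and each was found once. WBCs were the cells of peripheral blood left after lysis of red blood cells. They came from Wistar rats with collagen-induced arthritis (CIA), an arthritis raised by injecting type II collagen in incomplete Freund's adjuvant, with a boost injection on day 7, and from normal healthy controls. The rats were male and 7 weeks old at the start. 4 CIA rats were each sampled at 2 statuses, called Nampt++ when Nampt was overexpressed (about day 8) and Nampt+ after it had gone back to baseline (about day 14), and 3 controls were sampled once, so that 11 libraries were available. Nampt itself was the basis of the 2 statuses, and the time after immunisation cannot be told apart from the status. What the controls received is not given in the sources used here, so effects of adjuvant, collagen and arthritis cannot be told apart.

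Chaperones hold unfolded or newly made proteins and help them to fold. Hsp70 proteins bind and release their clients in an ATP cycle that J proteins such as Dnajb1 start and nucleotide exchange factors such as Hsph1 complete, while Hsp90 proteins act late in the folding of kinases and steroid receptors. Heat and other stress in the cytosol release heat shock factor 1 from chaperones, and unfolded proteins in the endoplasmic reticulum (ER) activate a separate program that includes Hspa5 and Xbp1. In leukocytes these proteins also serve the high protein output of activated cells and antigen handling.

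Promoter sequences are shown because several members, though not all, held letters of a heat shock element, which the choice by symbol did not use. RefSeq's table of promoters (build GRCr8, 250 bases before to 50 after each start, 33469 windows) held 8 of the 10 members, and Hspa1b and Hsp90aa1 had no entry. A heat shock element is built of GAA units in alternating orientation, so the pairs GAANNTTC and TTCNNGAA, each its own reverse complement, and the 3-unit form GAANNTTCNNGAA were searched on both strands, and any 3-unit match contains one pair of each kind. The ER stress response element, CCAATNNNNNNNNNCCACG, was searched in the same way. In the lines that follow, the 250 bases before the start are given 5′ to 3′, with capitals for matches to any of these letters.

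Hspa8: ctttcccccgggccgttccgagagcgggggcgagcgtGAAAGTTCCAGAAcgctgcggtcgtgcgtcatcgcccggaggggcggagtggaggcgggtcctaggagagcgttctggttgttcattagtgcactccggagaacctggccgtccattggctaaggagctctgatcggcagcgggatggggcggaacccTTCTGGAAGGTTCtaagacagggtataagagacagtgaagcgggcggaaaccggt

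Hspe1: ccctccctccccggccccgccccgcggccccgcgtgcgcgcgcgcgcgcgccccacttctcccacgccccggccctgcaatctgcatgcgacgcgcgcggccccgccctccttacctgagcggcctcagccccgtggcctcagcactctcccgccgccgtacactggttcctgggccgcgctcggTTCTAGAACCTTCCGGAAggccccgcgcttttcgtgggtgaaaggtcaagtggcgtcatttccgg

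Hsph1: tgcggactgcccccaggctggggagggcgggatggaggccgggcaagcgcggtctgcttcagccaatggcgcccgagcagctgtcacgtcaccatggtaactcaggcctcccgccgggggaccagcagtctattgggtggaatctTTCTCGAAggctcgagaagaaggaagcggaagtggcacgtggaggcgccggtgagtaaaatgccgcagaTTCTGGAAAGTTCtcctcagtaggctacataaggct

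Dnajb1: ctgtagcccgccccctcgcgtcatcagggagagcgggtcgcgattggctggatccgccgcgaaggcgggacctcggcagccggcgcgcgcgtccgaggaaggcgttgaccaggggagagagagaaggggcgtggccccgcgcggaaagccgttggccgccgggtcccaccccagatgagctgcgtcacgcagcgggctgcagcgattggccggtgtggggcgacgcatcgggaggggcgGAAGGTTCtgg

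Hspb1: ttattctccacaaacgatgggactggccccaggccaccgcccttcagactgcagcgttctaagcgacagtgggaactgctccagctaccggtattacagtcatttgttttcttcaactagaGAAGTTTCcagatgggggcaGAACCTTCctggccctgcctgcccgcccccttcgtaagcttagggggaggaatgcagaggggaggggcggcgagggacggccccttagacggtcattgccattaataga

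Hspa5: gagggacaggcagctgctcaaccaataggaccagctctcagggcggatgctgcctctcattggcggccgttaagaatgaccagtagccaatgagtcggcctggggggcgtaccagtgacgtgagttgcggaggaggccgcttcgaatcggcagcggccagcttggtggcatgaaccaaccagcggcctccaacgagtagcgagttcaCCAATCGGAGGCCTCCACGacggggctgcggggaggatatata

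These windows lie at chr8:50080264-50080513 (Hspa8, plus strand), chr9:64084077-64084326 (Hspe1, plus), chr12:10427118-10427367 (Hsph1, plus), chr19:41431142-41431391 (Dnajb1, minus), chr12:26432302-26432551 (Hspb1, minus) and chr3:38452766-38453015 (Hspa5, plus) of GRCr8. Of the 8 members with a window, 6 held at least 1 pair, compared with 15.9% of all 33469 windows and 18 of 87 windows of other chaperone network genes. The 3-unit form was in the windows of 4 members (Hspa8, Hspd1, Hspe1 and Hsph1), compared with 0.798% of all windows and 4 of 87 network windows (Serpinh1, Dnaja1, Chordc1 and Cct4). Hspa8 had 3-unit matches from -213 to -201 and from -55 to -43 relative to the start, and the Hsph1 match ran from -36 to -24. The windows of Hspd1 and Hspe1 shared 211 bases, since the 2 genes stand head to head, so their overlapping 3-unit matches are the same bases, seen from -65 to -48 in Hspe1 and from -242 to -225 in Hspd1. Dnajb1 and Hspb1 held pairs only, and the windows of Hsp90ab1 and Hspa5 held no match to the letters of a heat shock element. Hspa5 was the member with an ER stress response element (from -43 to -25), which 0.0657% of all windows and 6 of 87 network windows held, those of Hsp90b1, Creld2, Canx, Xbp1, Dnajc3 and Calr. A match is a description of letters, and binding was not measured.

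Before the levels, some facts on the libraries are needed. Total counts lay between 65340027 and 85819418, so for all members but the lowest 2 the spread between rats and not the counting sets the error. Haemoglobin genes took between 6.84% and 42.8% of the counts, with 6.84% to 37.3% in Nampt++, 14.8% to 42.8% in Nampt+ and 16.2% to 30.9% in control libraries, and FPKM (fragments scaled by transcript length and by the total of the library) is taken over a total that includes them. For this reason CPM values (counts scaled to a fixed total) outside the haemoglobin genes are given where the 2 scales differ. The markers of T cells, B cells, NK cells, neutrophils, monocytes and platelets were all present, as a leukocyte sample needs, with Ccr2, Cd79a and Derl3 not found under these symbols. Libraries stood apart in single marker lists. In the Nampt++ library of rat 1 the summed FPKM of 8 neutrophil markers was 40200, compared with 2077 to 15510 in the other libraries. In the Nampt+ library of rat 2 the 8 T cell markers summed to 349 and the 6 NK cell markers to 68.0 FPKM, the lowest of all libraries, and the haemoglobin share was the highest. In the same library the 8 neutrophil markers summed to 15510 FPKM, below Nampt++ rat 1 alone. A high haemoglobin share lowers such sums, and they were not computed outside the haemoglobin genes, where the order of libraries can differ. Control 3 had B cell markers of 654.8, compared with at most 317.5 elsewhere, control 1 NK cell markers of 395.1 (at most 229.9 elsewhere), and Nampt+ rat 1 platelet markers of 15730 (at most 9682 elsewhere). In bulk WBCs, fewer cells of a type and less RNA per cell cannot be told apart.

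**Figure D1:**
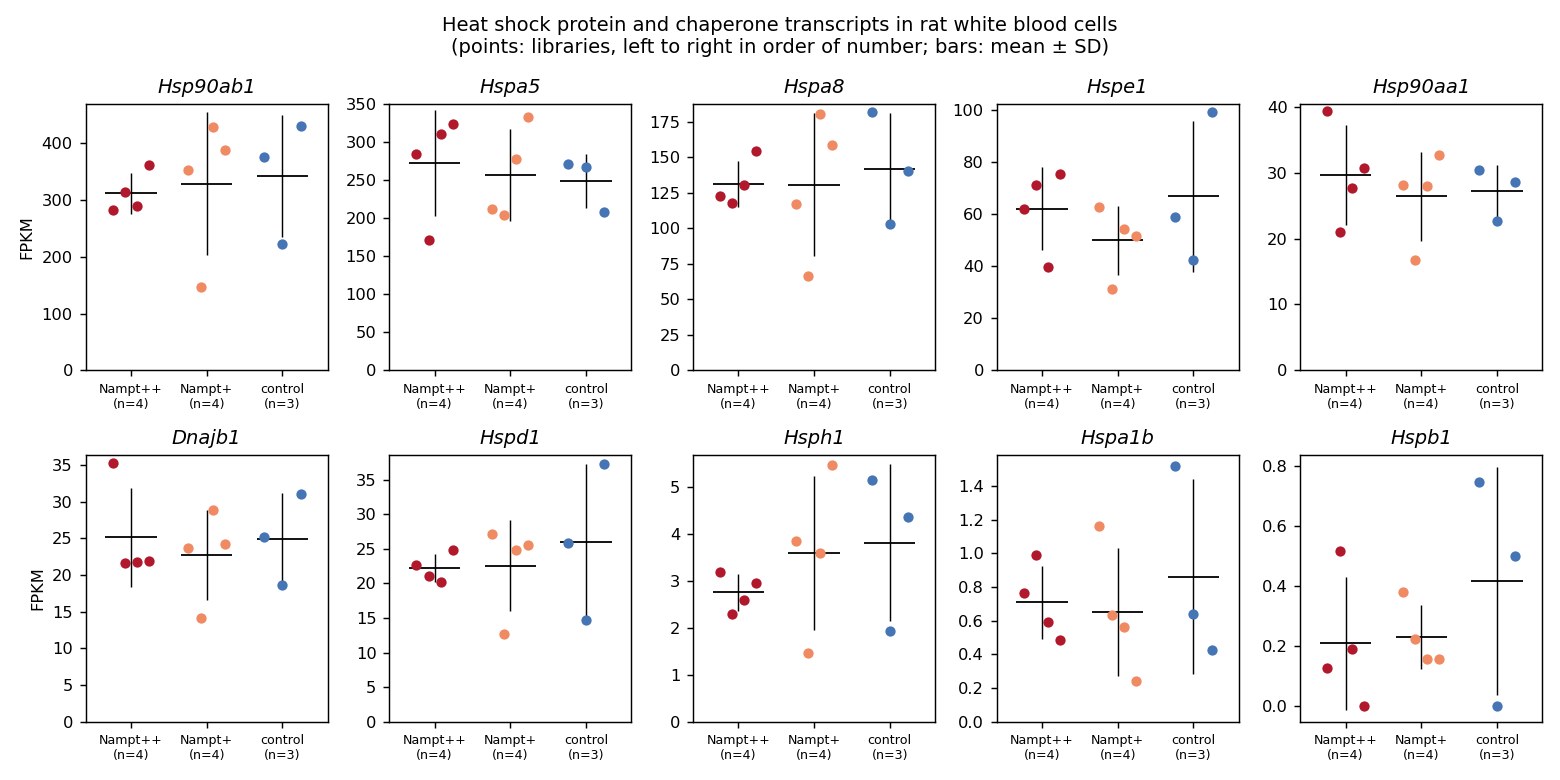
FPKM of the 10 members in each library, 1 panel per gene with a linear axis. Points are libraries of Nampt++ (n = 4), Nampt+ (n = 4) and control (n = 3) rats, lines and bars are mean ± SD, and in every panel the points of the 3 groups overlap, with the second Nampt+ point (rat 2) the lowest of all in 7 panels by FPKM. In CPM outside the haemoglobin genes that library was the lowest for 4 of the 10. How often it was the lowest over all genes was not computed.

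The members spanned a wide range of levels, from Hsp90ab1 with a mean of 326 ± 87.1 FPKM (SD, n = 11) to Hspb1 with 0.273 ± 0.236. In order of the mean they were Hsp90ab1, Hspa5 (261 ± 54.0), Hspa8 (134 ± 34.4), Hspe1 (59.0 ± 18.8), Hsp90aa1 (27.8 ± 6.05), Dnajb1 (24.2 ± 5.85), Hspd1 (23.4 ± 6.53), Hsph1 (3.34 ± 1.28), Hspa1b (0.729 ± 0.365) and Hspb1. Each of Hspa5, Hspa8, Hspe1, Hspd1 and Hsph1 was above the next in the order in 11 of 11 libraries, and Hspa1b above Hspb1 in 10 of 11. Hsp90ab1 was above Hspa5 in 7 of 11, Hsp90aa1 above Dnajb1 in 8 of 11 and Dnajb1 above Hspd1 in 6 of 11, so these neighbours did not differ beyond their spread. Together the members took from 0.12% of the counts in the Nampt+ library of rat 2 (95% Wilson interval 0.119% to 0.121%, which covers counting error only) to 0.254% in the Nampt+ library of rat 4. Of the counts outside the haemoglobin genes they took from 0.2095% in that library of rat 2 to 0.3401% in control 1.

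The Hsp90 chaperones of the cytosol come as a constitutive form, Hsp90ab1, and a form that heat induces, Hsp90aa1. Hsp90ab1 (ENSRNOG00000019834, chr9:17817721-17823243 as deposited) had 282, 313, 289 and 362 FPKM in Nampt++ rats 1 to 4, 353, 147, 428 and 388 in the same rats at Nampt+, and 376, 221.5 and 429 in controls 1 to 3. Values of Nampt+ rat 2 and control 2 were low and those of Nampt+ rat 3 and control 3 high, and by FPKM the range of the Nampt++ group lay inside those of both others. In CPM outside the haemoglobin genes Nampt++ rat 1 (837) was below the lowest control (884). Hsp90aa1 (ENSRNOG00000059714, chr6:135107271-135112775) had 39.4, 21.0, 27.7 and 30.7 FPKM at Nampt++, 28.1, 16.8, 28.0 and 32.7 at Nampt+, and 30.4, 22.7 and 28.6 in controls. It was highest in Nampt++ rat 1 and lowest in Nampt+ rat 2 by FPKM, whereas control 1 was the highest outside the haemoglobin genes (124.5 CPM, with 121.3 in Nampt++ rat 1), and the groups overlapped. The ratio of Hsp90ab1 to Hsp90aa1 FPKM was 11.1 ± 3.22 (SD, n = 4) at Nampt++, 12.1 ± 2.69 (n = 4) at Nampt+ and 12.4 ± 2.64 (n = 3) in controls. The lowest ratio was 7.16. With LOC103692716, a copy of Hsp90aa1 described further on, added to Hsp90aa1, the ratio lay between 4.53 and 8.97, so the constitutive form was the higher one in all 11 libraries in both cases.

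Hspa8 is the constitutive Hsp70 of the cytosol, which also uncoats clathrin vesicles. Hspa8 (ENSRNOG00000034066, chr8:44990014-44993179) had 123, 118, 130 and 154 FPKM in the Nampt++ rats, 117, 66.2, 181 and 159 at Nampt+, and 182, 103 and 141 in controls. Nampt+ rat 2 was lowest, Nampt+ rat 3 and control 1 were highest, and the groups overlapped. Hspa1b, the heat-inducible Hsp70 (ENSRNOG00000050647, chr20:4877324-4879779), had 0.762, 0.99, 0.595 and 0.488 FPKM at Nampt++, 1.16, 0.633, 0.564 and 0.245 at Nampt+, and 1.52, 0.640 and 0.425 in controls, from 46 to 278 counts. Control 1 and Nampt+ rat 1 were high and Nampt+ rat 4 low, and the groups overlapped. Control 1, highest for both Hsp70 genes, was the library with the high NK cell markers, and their part was not tested. The mean of this Hsp70, which marks a heat shock response, was thus 0.729 FPKM beside 134 FPKM for its constitutive relative.

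Dnajb1, the J protein that stimulates Hsp70 in the cytosol (ENSRNOG00000021824, chr19:24747178-24750919), had 35.3, 21.6, 21.8 and 21.9 FPKM at Nampt++, 23.7, 14.2, 28.8 and 24.3 at Nampt+, and 25.2, 18.6 and 31.1 in controls. The Nampt++ library of rat 1 stood above the other 3 of its group, which lay between 21.6 and 21.9 FPKM. Outside the haemoglobin genes its value was 88.6 CPM, compared with 79.5, 63.8 and 55.8 in Nampt++ rats 2 to 4, so that on this scale the values were spread over the range. This was the library with the high neutrophil markers and the low haemoglobin share, and their part in it was not tested. Hsph1, an Hsp110 that exchanges the nucleotide of Hsp70 (ENSRNOG00000000902, chr12:6322668-6341902), had 3.19, 2.30, 2.59 and 2.94 FPKM at Nampt++, 3.85, 1.46, 3.58 and 5.46 at Nampt+, and 5.13, 1.93 and 4.34 in controls. In the Nampt++ group Hsph1 stayed in a narrow band that the wider ranges of Nampt+ and control libraries enclosed.

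Hspd1 and Hspe1 are the chaperonin of the mitochondrial matrix and its lid. Their genes stand next to each other on opposite strands, at chr9:61680530-61690956 (ENSRNOG00000014525, minus) and chr9:61692154-61694599 (ENSRNOG00000051624, plus) of the deposited table, with the shared promoter window shown above. Hspd1 had 22.6, 21.1, 20.2 and 24.9 FPKM at Nampt++, 27.2, 12.8, 24.9 and 25.5 at Nampt+, and 25.9, 14.8 and 37.3 in controls. Hspe1 had 62.0, 71.2, 39.8 and 75.3 FPKM at Nampt++, 62.6, 31.2, 54.4 and 51.4 at Nampt+, and 59.1, 42.6 and 99.0 in controls. By FPKM both were lowest in Nampt+ rat 2 and highest in control 3, and the groups overlapped for both. Outside the haemoglobin genes control 3 was still the highest, but Hspd1 was lowest in control 2 (49.3 CPM, with 51.2 in Nampt+ rat 2) and Hspe1 in Nampt++ rat 3 (13.9 CPM, with 14.97 in Nampt+ rat 2). Control 3 was the library with the high B cell markers, and their part was not tested. The ratio of Hspe1 to Hspd1 FPKM was 2.78 ± 0.598 (SD, n = 4) at Nampt++, 2.24 ± 0.18 (n = 4) at Nampt+ and 2.61 ± 0.301 (n = 3) in controls, with a lowest value of 1.97 and a highest of 3.37, both in the Nampt++ group. Over the 11 libraries the 2 genes had a Pearson r of 0.85 in log2(FPKM + 1), a description of libraries that share their depth and haemoglobin share. Hspe1 is a short transcript, so its 614 to 2250 counts make a higher FPKM than the 2098 to 7074 counts of Hspd1.

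Hspa5, also called BiP, is the Hsp70 of the ER lumen and holds the sensors of the unfolded protein response inactive. Hspa5 (ENSRNOG00000018294, chr3:13838304-13842762) had 285, 172, 311 and 325 FPKM at Nampt++, 213, 205, 279 and 333 at Nampt+, and 272, 268 and 208 in controls. By FPKM Nampt++ rat 2 was the lowest library and Nampt+ rat 4 the highest, and the control range lay within both others. Outside the haemoglobin genes control 3 was the lowest (664 CPM, with 721 in Nampt++ rat 2), and the control range reached to 1037 CPM, so that it lay within neither. The r of Hspa5 with the 7 members Hsp90ab1, Hspa8, Hspe1, Hsp90aa1, Dnajb1, Hspd1 and Hsph1 ran from -0.18 to 0.63 in log2(FPKM + 1) over the 11 libraries, and the 21 pairs among those 7 ran from 0.48 to 0.92. Its values with Hsp90aa1 (0.63) and Hspa8 (0.51) were inside the range of those pairs. These values are given without a test, and the set of 7 was put together after its values were seen.

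Hspb1, the small heat shock protein known as Hsp27 (ENSRNOG00000023546, chr12:23839399-23841049), was close to absent from these WBCs. It had 0.126, 0.518, 0.189 and 0 FPKM at Nampt++, 0.380, 0.225, 0.156 and 0.158 at Nampt+, and 0.747, 0 and 0.501 in controls, from at most 49 counts in a library. In Nampt++ rat 4 and control 2 no read was counted, which allows up to 3 counts, or 0.0459 and 0.035 CPM of those libraries. All 3 groups overlapped, and the depth cannot rank them.

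The first question was whether chaperone transcripts differ between the statuses of the same CIA rats. Of the 10 members, 8 had a mean FPKM of at least 1 and entered edgeR's quasi-likelihood test with all other genes, and Hspa1b and Hspb1 did not. This test ignored that both samples came from the same rat, and a fit with the rat as replicate block is given further on. In Nampt+ against Nampt++ samples 0 of these 8 passed the study's thresholds (an unadjusted p under 0.05 together with a mean FPKM over 2 times or under 0.5 times that of the other group), compared with 0.642% of 11219 genes. 0 of 8 had an unadjusted p under 0.05 by edgeR, DESeq2 or limma, compared with 2.28%, 3.33% and 1.06% of all genes by these tools. 0 of 8 had groups that did not overlap, compared with 0.41% of all genes. After Benjamini-Hochberg adjustment 0 of the 11219 genes tested passed. The widest difference was that of Hsph1, higher at Nampt+ by a log2 fold change of 0.37 (SE 0.21, unadjusted p = 0.111 and adjusted p = 1.00 by edgeR, 3 of 4 rats higher). Hspe1 was lower by -0.26 (SE 0.22, unadjusted p = 0.269 by edgeR, 2 of 4 rats lower), and the other 6 lay between -0.10 (Hsp90aa1) and 0.07 (Hsp90ab1). The median of the 8 was 0.02, beside -0.00 for all genes. The 95% interval of the fold change lay within 2-fold in both directions for all 8 members in this comparison, the lowest bound being -0.76 (Hspe1) and the highest 0.85 (Hsph1). The size for Hsph1 depended on single libraries, with a log2 fold change of 0.18 (unadjusted p = 0.387 by edgeR) without Nampt+ rat 4 and of 0.49 (unadjusted p = 0.0344 by edgeR) without Nampt+ rat 2, both under the threshold of fold.

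The means hid opposite changes within the rats. In rat 2, 9 of 10 members were lower at Nampt+ than at Nampt++ and Hspa5 alone was higher, with differences in log2(FPKM + 1) of -1.17 for Hspe1, -1.09 for Hsp90ab1, -0.82 for Hspa8 and 0.25 for Hspa5. In rat 3, 7 members were higher at Nampt+, by up to 0.56 (Hsp90ab1), and in rat 4, 8 were higher, by up to 0.71 (Hsph1). In rat 1, 6 were higher and 4 lower, with Dnajb1 at -0.56 and Hsp90aa1 at -0.47. Of the 10 members, 0 moved in one direction in 4 of 4 rats. In CPM outside the haemoglobin genes the counts were 7, 1, 6 and 8 members higher in rats 1 to 4, and the differences in rat 2 were -1.01 (Hspe1), -0.96 (Hsp90ab1), -0.70 (Hspa8) and 0.39 (Hspa5). So the pattern of rat 2 was there on both scales. The share of all genes that moved the same way within each rat was not computed, so these counts cannot be read as particular to the members. By FPKM some other chaperone network genes were also lowest in the Nampt+ library of rat 2, and others were not. The members are not separate observations either, since the 21 pairs among 7 of them had r from 0.48 to 0.92. The Nampt+ library of rat 2 was also that with the highest haemoglobin share and, by summed FPKM alone, the lowest T cell and NK cell markers. The marker sums were not computed outside the haemoglobin genes, and the part of either in the difference was not tested.

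**Figure D2:**
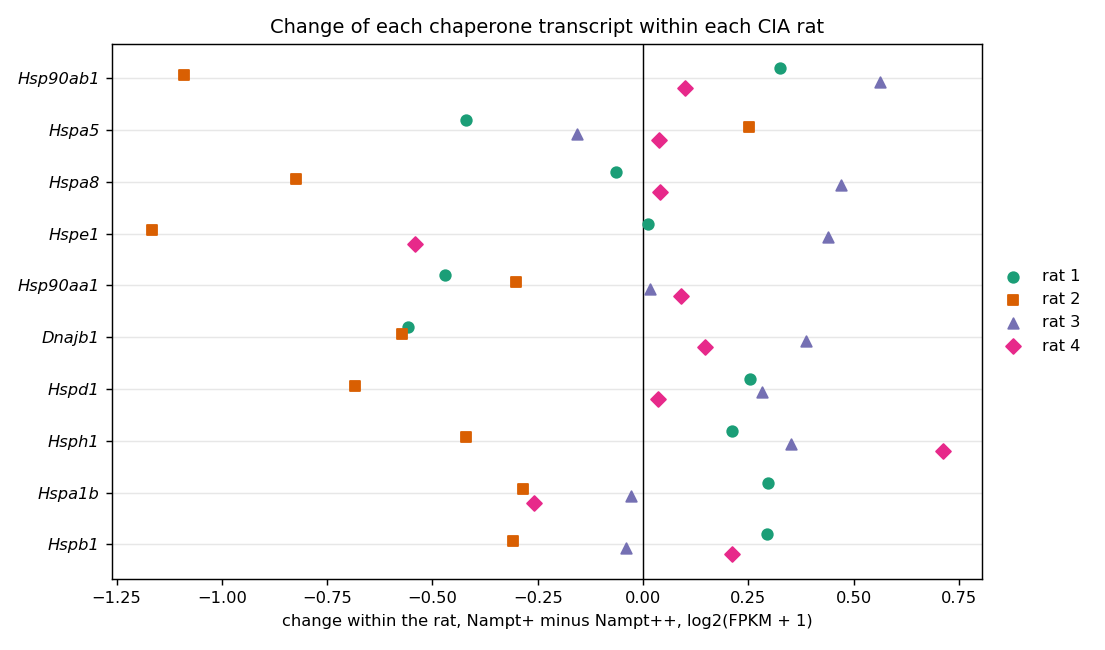
Difference of each member between the Nampt+ and the Nampt++ sample of the same rat in log2(FPKM + 1), with 1 symbol per rat and the members in order of mean FPKM. Rat 2 lies left of 0 for 9 of 10 members, down to -1.17 for Hspe1, and right of it for Hspa5, and for each gene at least 1 rat lies on either side. The share over all genes was not computed.

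The second question was whether the members differ between CIA rats at Nampt++ and controls. 0 of 8 passed the thresholds, compared with 0.686% of 11219 genes, 0 of 8 had an unadjusted p under 0.05 by edgeR, DESeq2 or limma, compared with 1.57%, 2.3% and 1.75%, and 0 of 8 had groups without overlap, compared with 1.1%. Of the 11219 genes tested, 0 passed after adjustment. Hsph1 was lower in Nampt++ samples by -0.45 (SE 0.26, unadjusted p = 0.121 by edgeR), by -0.67 without control 2 (unadjusted p = 0.0228 by edgeR) and by -0.13 without control 1 (unadjusted p = 0.581 by edgeR). Hspd1 was lower by -0.18 (SE 0.19), Hspa8 by -0.14 (SE 0.22) and Hsp90ab1 by -0.12 (SE 0.22), and Hspa5, Dnajb1, Hsp90aa1 and Hspe1 lay between -0.07 and 0.07. The median of the 8 was -0.09, beside 0.00 for all genes. The interval lay within 2-fold for 7 of 8 members, and for Hsph1 it reached from -1.06 to 0.15.

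The third question was whether they differ between the same CIA rats at Nampt+ and controls. This comparison shares its controls with the second and its Nampt+ samples with the first. Again 0 of 8 passed the thresholds, compared with 0.497% of 11269 genes, 0 of 8 had an unadjusted p under 0.05 by edgeR, DESeq2 or limma, compared with 0.87%, 1.31% and 0.816%, and 0 of 8 did not overlap, compared with 0.444%. 0 of 11269 genes passed after adjustment. Hspe1 was lower at Nampt+ by -0.34 (SE 0.20, unadjusted p = 0.132 by edgeR), from 49.9 ± 13.3 FPKM (SD, n = 4) against 66.9 ± 29.0 (n = 3). The other 7 lay between -0.15 (Hspa8) and 0.04 (Hspa5), with a median of the 8 of -0.10 beside -0.00 for all genes. All 8 intervals lay within 2-fold, from -0.81 (Hspe1) to 0.78 (Hspa5).

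**Figure D3:**
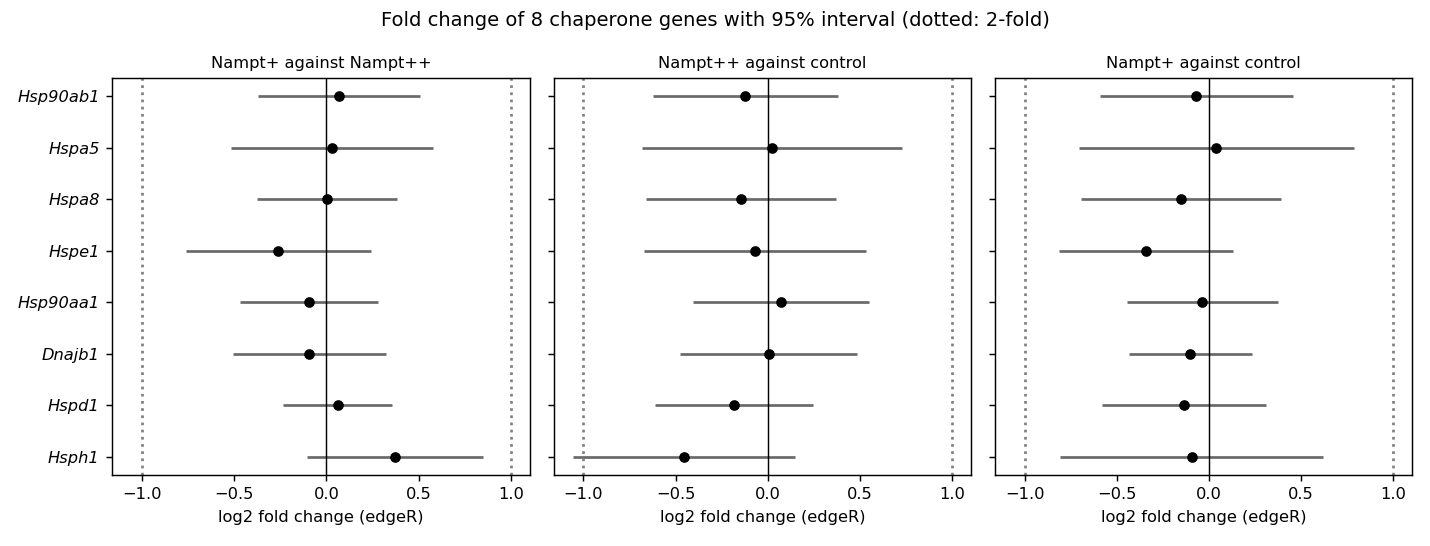
Fitted log2 fold change (x axis, edgeR) of the 8 members tested, in 1 panel per comparison, with points for the estimate, bars for the 95% interval and dotted lines at 2-fold. All bars cross 0, and the bar of Hsph1 in Nampt++ against control alone crosses a dotted line, at -1.06.

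Hspa1b and Hspb1 were fitted without the filter on FPKM. Hspa1b had log2 fold changes of -0.02 (SE 0.55), -0.29 (SE 0.55) and -0.32 (SE 0.67) for Nampt+ against Nampt++, Nampt++ against control and Nampt+ against control. For Hspb1 the SE was 1.21, 1.63 and 1.302, so the data do not limit a change of 2-fold in either direction for these 2 genes. In exact permutation tests of log2(FPKM + 1), two-sided, the smallest p over the 10 members and 3 comparisons was 0.343, where the design can reach 0.0286.

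Some members have copies, taken as such from their descriptions, and the sequences were not compared. How reads that match both a member and a copy were counted is not given in the sources used here. Hspa8 has 3 copies in the table described as similar to heat shock protein 8, of which LOC688655 (chr6:34553367-34555306, a pseudogene) had 51.9% and LOC680121 (chr11:13499164-13501263) 40.0% of the counts of Hspa8 over all libraries. These 2 copies varied far more than Hspa8 itself. LOC688655 had 16.7, 21.4, 80.4 and 141 FPKM in Nampt++ rats 1 to 4, 15.3, 60.4, 158 and 79.3 at Nampt+, and 102, 67.1 and 30.1 in controls. LOC680121 had 75.7, 56.5, 74.5 and 19.97 FPKM at Nampt++, 98.1, 11.9, 25.2 and 110 at Nampt+, and 14.1, 20.4 and 38.3 in controls. LOC680121 was above LOC688655 in 5 of 11 libraries, and which copy was higher was not the same at both statuses of rats 2 and 4. Hsp90aa1 has a copy on chromosome 6, LOC103692716 (chr6:135045363-135049728), with 61.3% of its counts. For Hspa1b, LOC108348108 (chr20:2699712-2701815), described as heat shock 70 kDa protein 1A, had 63.2%. With the copies summed in, a setting added after seeing the data, the log2 fold change of Hspa8 became 0.11, 0.05 and 0.15 in the 3 comparisons, with the sign turned in both comparisons with controls, and that of Hsp90aa1 -0.12, -0.02 and -0.15, with the sign turned in Nampt++ against control. The levels of these 3 members are therefore uncertain by the share of the copies, and the directions of Hspa8 and Hsp90aa1 are too.

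**Figure D4:**
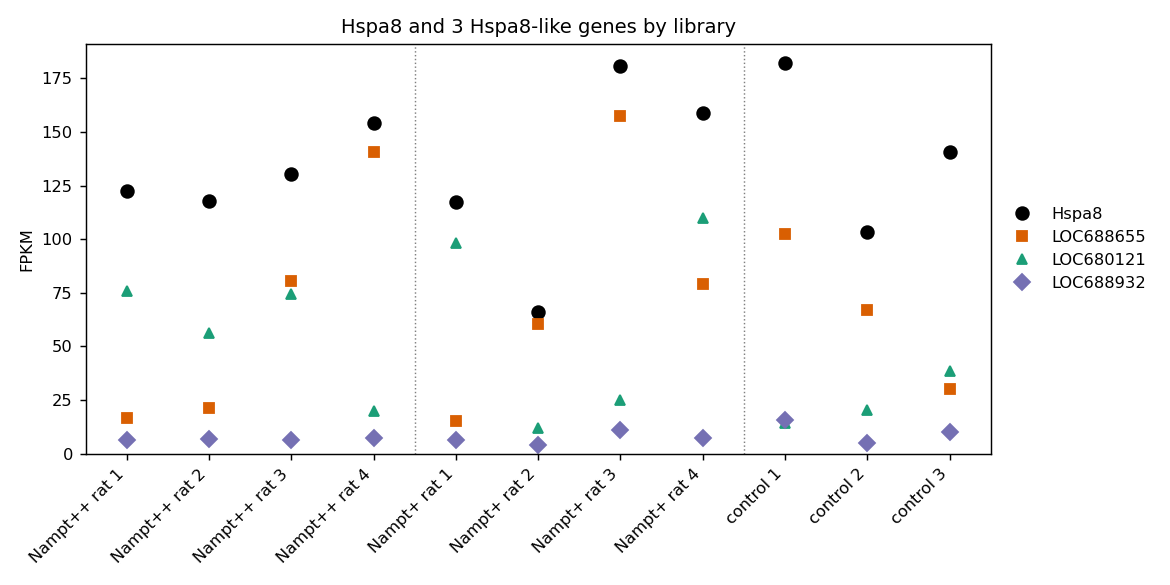
FPKM of Hspa8 and of its 3 copies in each of the 11 libraries, with dotted lines between Nampt++, Nampt+ and control. Hspa8 is the highest in each library, while LOC688655 (15.3 to 158 FPKM) and LOC680121 (11.9 to 110 FPKM) change places between libraries.

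The genes that work with the members were examined as 7 lists of other chaperones, co-chaperones and stress factors, 102 in all, of which 101 were found and 87 tested. Many were abundant in WBCs, 64 with a mean of at least 10 FPKM, led by Atf4 (292 FPKM), a translation-controlled transcription factor of the stress response, Calr (232), a lectin chaperone of the ER, Cct5 (150), a subunit of the cytosolic chaperonin, and Pdia3 (132), a disulphide isomerase. The small heat shock proteins were an exception, with 2 of 9 tested. Of Cryab, Cryaa, Hspb3 and Hspb8, known from muscle or the lens, the mean was 0.0648, 0.0309, 0.00644 and 0 FPKM. 0 of the 87 passed the thresholds in each of the 3 comparisons, beside the 0.642%, 0.686% and 0.497% of all genes. An unadjusted p under 0.05 by edgeR was seen for 0, 0 and 1 of 87, beside 2.28%, 1.57% and 0.87% of all genes, by DESeq2 for 2, 1 and 2, beside 3.33%, 2.3% and 1.31%, and by limma for 0 in each.

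By list, the median log2 fold change of Nampt+ against Nampt++ was -0.04 for 16 genes of the Hsp70 family and nucleotide exchange, 0.01 for 19 J proteins, 0.08 for 15 of the Hsp90 family and co-chaperones, -0.03 for 14 chaperonin and prefoldin subunits, 0.08 for 2 small heat shock proteins, -0.10 for 3 heat shock factors and 0.02 for 18 genes of ER folding and the unfolded protein response. Against controls the medians of the same lists lay between -0.21 and 0.11 for Nampt++ and between -0.33 and 0.07 for Nampt+, the lowest being in both cases that of the 3 heat shock factors, and 0 genes of any list passed. The chaperonin and prefoldin genes, which build the folding chamber of the cytosol and feed it, lay between -0.13 and 0.11 at Nampt+ against Nampt++.

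Among single genes named by size, Xbp1, the transcription factor that IRE1 activates by splicing in ER stress, differed most. It had 142, 30.4, 38.3 and 32.2 FPKM at Nampt++, 28.9, 20.8, 44.4 and 35.6 at Nampt+, and 24.6, 29.4 and 37.3 in controls. The high mean at Nampt++ came from the library of rat 1, and the other 3 lay within the range of the Nampt+ and control libraries. The log2 fold change was -0.82 (SE 0.47, unadjusted p = 0.114 by edgeR) for Nampt+ against Nampt++ and 0.93 (SE 0.55, unadjusted p = 0.133 by edgeR) for Nampt++ against control. Without Nampt++ rat 1 these were -0.05 and 0.15. Without Nampt++ rat 4 the first was -1.10 (unadjusted p = 0.0441 by edgeR) and Xbp1 passed the thresholds. Hspa5, whose promoter shares the ER stress response element with Xbp1, had 285 FPKM in the Nampt++ library of rat 1, inside the range of the others. Of the ER list, Sdf2l1 was highest in that library (51.5 FPKM, compared with 14.9 to 30.1 in the others). Ddit3 was inside the range of the others there (65.3 FPKM, with 32.7 to 87.1 elsewhere). A part of ER stress in that library was not tested.

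Hspa13, an Hsp70 relative of the microsomes, had 17.8, 6.35, 19.6 and 17.5 FPKM at Nampt++, 6.42, 10.95, 11.9 and 14.8 at Nampt+, and 6.61, 16.4 and 6.75 in controls. Nampt++ rat 2 was low for its group and control 2 high, and the groups overlapped. The log2 fold change against controls was 0.42 (SE 0.53, unadjusted p = 0.457 by edgeR), and without control 2 it was 1.302 (unadjusted p = 0.0159 by edgeR), past the thresholds, whereas without control 3 it was 0.0847 (unadjusted p = 0.879 by edgeR). The co-chaperone St13, which slows the release of ADP by Hsp70, and Dnaja1, a J protein of the cytosol, were likewise highest in Nampt++ rat 1 (94.0 and 132 FPKM, compared with 22.1 to 61.3 and 47.3 to 109 in the other libraries). Pfdn6, a prefoldin subunit that hands actin and tubulin to the chaperonin, was higher at Nampt++ than in controls by 0.52 (SE 0.23, unadjusted p = 0.0512 by edgeR).

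Of the heat shock factors, Hsf1, the main activator of the heat shock response, had 13.9, 11.95, 11.1 and 15.4 FPKM at Nampt++, 17.3, 7.72, 20.4 and 16.8 at Nampt+, and 15.8, 10.2 and 19.7 in controls. By FPKM it was lowest in Nampt+ rat 2. Its log2 fold change was 0.27 (SE 0.14, unadjusted p = 0.0818 by edgeR) for Nampt+ against Nampt++. Hsbp1, a small protein that binds the active factor, had 34.8, 23.3, 35.7 and 30.6 FPKM at Nampt++, 30.2, 15.1, 33.9 and 34.8 at Nampt+, and 32.4, 29.3 and 53.5 in controls. Among the network genes it alone had an unadjusted p under 0.05 by edgeR, lower at Nampt+ than in controls by -0.41 (SE 0.15, unadjusted p = 0.0281 and adjusted p = 1.00 by edgeR), and the groups overlapped. Without control 3 the value was -0.32 (unadjusted p = 0.111 by edgeR) and without control 1 it was -0.51 (unadjusted p = 0.0208 by edgeR). On all libraries of the comparison the unadjusted p was 0.0228 by DESeq2 and 0.29 by limma. With the other scalings and filters it was at most 0.0429 by edgeR. The genes with an unadjusted p under 0.05 by DESeq2 and not by edgeR were Hsf2, another heat shock factor, and Dnajc3 at Nampt+ against Nampt++, Pfdn6 at Nampt++ against control and Dnajb5, a J protein, at Nampt+ against control, with Hsf2 and Dnajb5 outside the naming rule and picked after their values were seen. Hsf2 was lower at Nampt+ than at Nampt++ by -0.45 (SE 0.21, unadjusted p = 0.0628 by edgeR and 0.0395 by DESeq2), and Dnajb5 was higher at Nampt+ than in controls by 0.68 (SE 0.31, unadjusted p = 0.0595 by edgeR and 0.0464 by DESeq2).

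Other genes with the widest differences of their lists did not pass either. Ddit3, the transcription factor CHOP that is made under lasting ER stress, had 65.3, 32.7, 85.5 and 87.1 FPKM at Nampt++, 55.1, 86.8, 69.3 and 84.0 at Nampt+, and 64.8, 74.2 and 37.9 in controls. It was lowest in Nampt++ rat 2 by FPKM, and its log2 fold change was 0.36 (SE 0.38) for Nampt+ against Nampt++. Sdf2l1, an ER protein that works with Hspa5, was higher at Nampt++ than in controls by 0.46 (SE 0.41), and by 0.0382 without Nampt++ rat 1 and 0.69 without Nampt++ rat 4. Of the J proteins, Dnajb2 was higher at Nampt+ than at Nampt++ by 0.38 (SE 0.35), and by 0.0199 without Nampt+ rat 2 and 0.62 without Nampt++ rat 2. Dnajc3, which acts in the ER lumen, was lower by -0.22 (SE 0.12, unadjusted p = 0.0886 by edgeR and 0.041 by DESeq2). Grpel1, the nucleotide exchange factor of mitochondrial Hsp70, was lower by -0.26 (SE 0.18), and Trap1, the Hsp90 of mitochondria, and Fkbp4, an Hsp90 co-chaperone of steroid receptors, were higher by 0.21 (SE 0.17) and 0.19 (SE 0.22). Cct4, Pfdn5, Cct6a, Bag1, Cdc37, Stip1 and Dnajc2 were named by the same rule. In the comparisons for which the rule named them they lay between -0.22 (Stip1) and 0.22 (Pfdn5). Outside these, Dnajc2 was at -0.27 in Nampt++ against control.

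**Figure D5:**
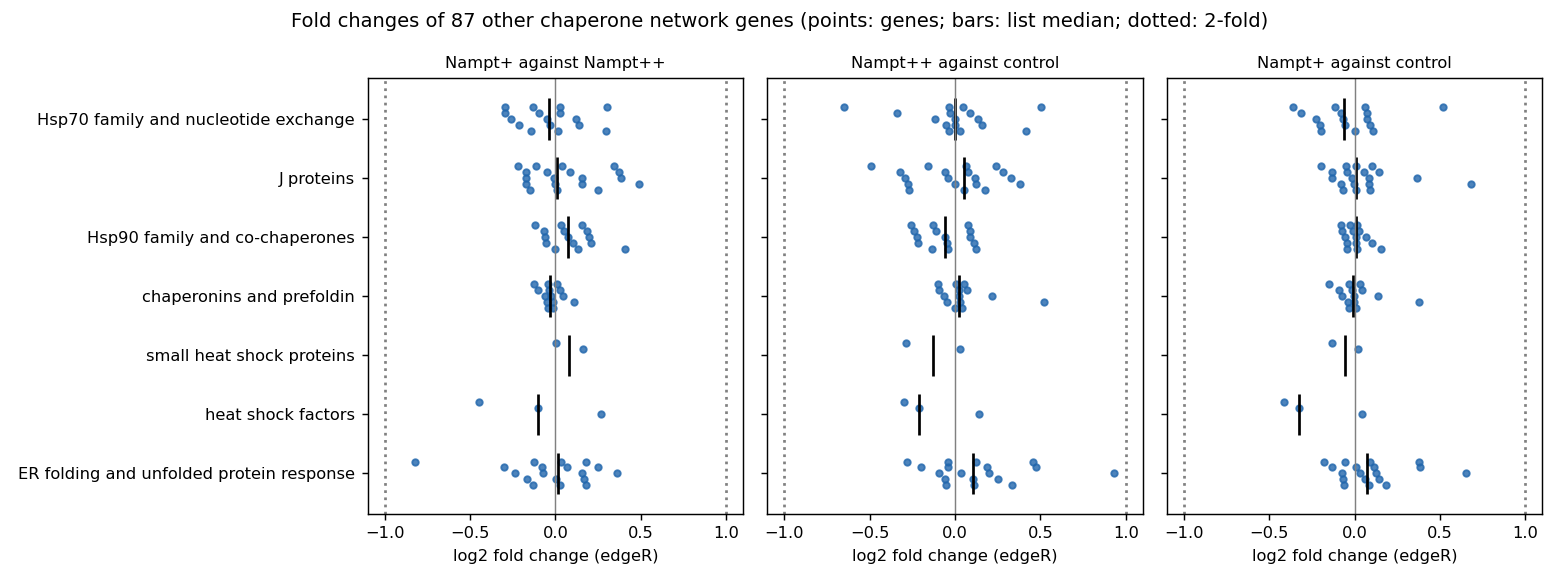
Fitted log2 fold changes (x axis, edgeR) of the 87 other chaperone network genes tested, by list and comparison, with points for genes, bars for the median of a list and dotted lines at 2-fold. No point lies past 2-fold, and the farthest are those of Xbp1 at -0.82 and 0.93.

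The genes with the pattern most like 3 of the members were looked up by Pearson r of log2(FPKM + 1) over the 11 libraries, among 4930 genes with a mean of at least 10 FPKM, as a description. Among the nearest to Hsp90ab1 were Sf3b3, a splicing factor, and Impdh2, an enzyme of guanine nucleotide synthesis (r = 0.99 each). Nearest to Hspa5 were Lrrfip1, Spty2d1 and Lrmp (r = 0.96 each). For Hspa1b the nearest were Ldhb (r = 0.83), Ubb (r = 0.77), which encodes a polyubiquitin, and AABR07004746 (r = 0.74). Points share depth and haemoglobin share, and the nearest genes to Hsp90ab1 had higher r than those to Hspa1b. Hspa1b, at a mean of 0.729 FPKM, lay below the 10 FPKM asked of the genes searched. Its r can therefore not be set directly beside that of Hsp90ab1.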

How the data were processed

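RNA of 11 libraries of rat WBCs was compared, with groups from the labels. A retina is named in the labels' extraction protocol, while sample sources and the study's methods give WBCs, which were assumed. The submitters' processing notes name cutadapt 1.9, HISAT2 2.0.4 and StringTie 1.3.4. The genome build and the counting of reads are not given in the sources used here. The authors deposited whole-number counts per gene without normalization, and FPKM values made by the authors, in which 0.0001 was read as 0. Columns of GO and KEGG annotation were not used. Members and lists were chosen with earlier results of these data known.

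Counts were tested with edgeR 4.0.16 (TMM, quasi-likelihood, R 4.3.3) for each pair of groups on genes whose FPKM averaged 1 or more, with Benjamini-Hochberg adjustment over all of them. The study's thresholds were used (ratio over 2 or under 0.5, p under 0.05). DESeq2 1.42.0, limma 3.58.1 on log2(FPKM + 1), other scalings and filters, and leaving out each library were alternatives. The script was tested on simulated data. Of the network lists, all genes past the thresholds and, per list and comparison, the 2 with the largest fold change among those with a mean of at least 10 FPKM were named. Some genes are not reported here. The most abundant network genes and the muscle and lens genes were named for their level.

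Same-numbered Nampt++ and Nampt+ samples come from one rat. After centring each group, the 2 samples of a rat correlated over 11242 genes at -0.27 (rat 1), -0.24 (rat 2), 0.23 (rat 3) and 0.086 (rat 4), and the rat was a replicate block in an alternative. Controls share only numbers with the rats. Each CIA rat and control is 1 animal, so p-values of the comparisons with controls measure the spread between animals. Apart from the replicate block, the tests of Nampt+ against Nampt++, the exact permutation included, took both samples of a rat as independent. Their p-values and intervals therefore do not measure the spread of the change within rats.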

Additional observations from a re-analysis of the deposited data

Results flagged for a closer look

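In 20 groups of 4 libraries (10 members at Nampt++ and at Nampt+), 2 held a library far from the others in FPKM by Dixon's test at the 95% level, and chance flags about 1 in 20. Dnajb1 at Nampt++ was 35.31 FPKM in rat 1, with the other 3 rats between 21.6 and 21.85. In this library the neutrophil markers were the highest and the haemoglobin share the lowest of all 11, and their part was not tested. Hspd1 at Nampt+ was 12.76 FPKM in rat 2, with the other 3 between 24.85 and 27.17. Here the haemoglobin share was the highest and the T cell markers the lowest by summed FPKM, and their part was not tested. In CPM outside the haemoglobin genes neither passed this test. There Dnajb1 was 88.6 in Nampt++ rat 1, with the others between 55.8 and 79.5 (ratio of gap to range 0.276), and Hspd1 was 51.2 in Nampt+ rat 2, with the others between 69.85 and 84.8 (ratio 0.556).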

How the results depend on the processing

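The counts of members past the thresholds stayed at 0 in every comparison under all alternatives run (upper quartile scaling, DESeq2, limma, no filter or a mean of at least 10 FPKM, haemoglobin genes left out, all groups in one fit, the rat as replicate block and leaving out each library). For chaperone network genes the count ranged from 0 to 1 when libraries were left out, with Xbp1 passing in Nampt+ against Nampt++ without Nampt++ rat 4 and Hspa13 in Nampt++ against control without control 2. Of 355 alternative values of member fold changes, 305 kept direction and side of the threshold and 50 changed sign. With the rat as replicate block 0 members and 0 network genes passed in Nampt+ against Nampt++, no call changed, and the log2 fold change of Hsph1 was 0.34 (unadjusted p = 0.1945 by edgeR). Controls could not be paired.

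Where a sign changed, the log2 fold change as reported lay between -0.15 and 0.071 for members and between -0.13 and 0.50 for named network genes, and the cause was not tested. With limma, Nampt+ against Nampt++ gave -0.072 for Hspa5, -0.026 for Hsp90ab1 and -0.028 for Hspd1. Hspa8, at 0.003 in this comparison, was -0.095 with limma, -0.0069 with DESeq2, -0.026 without a filter, -0.017 without haemoglobin genes and -0.0055 with the replicate block, and Hspa5 was -0.001 without a filter. In Nampt++ against control, upper quartile scaling gave -0.034 for Hspa5 and -0.067 for Dnajb1, and a mean of at least 10 FPKM gave -0.037 and -0.068. With copies summed, Hspa8 was 0.052 in Nampt++ against control and 0.15 in Nampt+ against control, and Hsp90aa1 -0.020 in the former. Hspa1b summed with LOC108348108 (described as heat shock 70 kDa protein 1A and taken as Hspa1a, which the table does not list by that symbol) was 0.072 in Nampt+ against Nampt++, compared with -0.0185 for Hspa1b by itself, both without a filter. In the exact permutation, CPM outside the haemoglobin genes (added after seeing the data) turned the difference to 0.065 for Hspa5, 0.041 for Hspa8, 0.11 for Hsp90ab1 and 0.10 for Hspd1 in Nampt+ against Nampt++, and to -0.032 for Hspa5, -0.031 for Hsp90aa1 and -0.12 for Dnajb1 in Nampt++ against control.

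Leaving out each library in turn changed the sign of 17 of 24 member fold changes and moved the other 7 by over 1.5 times, and for named network genes changed the sign of 7 of 36 and moved 19 more by over 1.5 times. These were the ranges of log2 fold change where the sign changed. For Nampt+ against Nampt++ they were -0.13 to 0.15 (Hspa5), -0.099 to 0.068 (Hspa8), -0.17 to 0.033 (Hsp90aa1), -0.0085 to 0.16 (Hsp90ab1), -0.0053 to 0.11 (Hspd1), -0.23 to 0.067 (Dnajb1), -0.26 to 0.071 (Pfdn6) and -0.092 to 0.53 (Ddit3). For Nampt++ against control they were -0.23 to 0.27 (Hspa5), -0.30 to 0.083 (Hspa8), -0.061 to 0.16 (Hsp90aa1), -0.24 to 0.10 (Hspe1), -0.16 to 0.12 (Dnajb1) and -0.022 to 0.84 (St13). For Nampt+ against control they were -0.21 to 0.30 (Hspa5), -0.30 to 0.065 (Hspa8), -0.16 to 0.043 (Hsp90aa1), -0.17 to 0.026 (Hsp90ab1), -0.29 to 0.0065 (Hspd1), -0.31 to 0.22 (Hsph1), -0.038 to 0.10 (Hsf1), -0.073 to 0.81 (Ddit3), -0.24 to 0.54 (Sdf2l1) and -0.24 to 0.11 (Stip1).

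With 3 or 4 animals in a group, the 95% intervals of the 8 members tested reached down to -1.06 and up to 0.85 on the log2 scale, so smaller differences could be missed. For Hspb1, and to a lesser degree for Hspa1b, the low counts limit the precision as well.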
